A study of Mus musculus with 8 samples.

Results

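The genes described here store, carry, make, sense and break down vitamin A in the liver. They are Rbp4, Stra6, Lrat, Dhrs3, Aldh1a1, Aldh1a2, Rarb, Cyp26a1 and Cyp26b1, 9 genes with 11 probes on 8 arrays of mouse liver RNA. All probes whose gene name on the array is 1 of these symbols were taken, and the brightest probe of a gene stood for it. Of the 9 genes, 8 passed the filter on dim probes, which asked for a signal well above background on 4 or more arrays and kept 18534 features in all. Those 8 were detected in this sense on all 8 arrays. The genes were selected on earlier results of these same arrays, in which the difference of Cyp26b1 between the oligonucleotides in the 2-week livers stood out. Differences between single arrays are therefore given as descriptions, and Cyp26b1 has no test for the oligonucleotide.

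Each array held liver RNA of male mice in which fibrosis had been induced over 5 weeks with CCl4 (carbon tetrachloride) or with TAA, the abbreviation used in the labels. The mice were then followed for 1 or 2 weeks, with an injection every 3 days of either miR-29a or a negative control oligonucleotide, NC. That gives 8 groups of 1 array each. Values of an agent are listed below with the 1-week arrays first and, within a week, NC before miR-29a. All 8 groups therefore carry a fibrotic injury and an injected oligonucleotide, and no uninjured or uninjected liver was among them. The labels give no strain or age and do not say whether an array held 1 animal or a pool. With 1 array per group, the p-values below rest only on how far these arrays depart from the fitted terms. Any interaction left out of a fit goes into that error, and no spread between replicates is measured.

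Vitamin A reaches the liver as retinol and is kept there as retinyl esters, mainly in the fat droplets of hepatic stellate cells, the pericytes that turn into matrix-making myofibroblasts when the liver is injured. Retinol can be oxidised to retinal and then to retinoic acid, which switches genes on through nuclear retinoic acid receptors. CYP26 enzymes oxidise and so clear retinoic acid, and their genes are themselves among its best-known targets. Loss of retinyl ester droplets is a hallmark of stellate cell activation.

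The arrays were single-colour, and between 43.9% and 48.4% of their probes were well above background, with 0 saturated spots. The 7 hepatocyte markers were all detected, with a mean log2 level between 9.25 and 9.52 on every array. Array TAA 1-week NC stood apart, with a mean level of 10.55 over 5 acute-phase genes against 5.31 to 6.11 on the other 7 arrays, of 5.73 over 3 neutrophil genes against −0.51 to 0.89, and of 4.07 over 5 Kupffer cell genes against 1.21 to 2.28. The 4 CCl4 arrays lay in one block of the slide and the 4 TAA arrays in the other, so array position and agent cannot be told apart. With 1 array per group, the number of arrays limits the precision of every value. Levels are log2 processed signals minus the 75th percentile of the same array, so 0 is the brightness below which 75% of that array's probes lie.

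A retinoic acid response element of the DR5 kind is a direct repeat of a receptor half-site with 5 bases between the copies. The promoters of the 9 genes (RefSeq, build GRCm38.p6, 250 bases before to 50 after each start, 16 promoters) were searched on both strands for 4 half-sites in that arrangement, in any combination: AGGTCA and AGTTCA, and also GGGTCA and GGTTCA, and a match was found in Cyp26a1 and Rarb alone. Over all 32851 RefSeq promoters of that length, 32 held a match, or 0.0974%. Their bases from −120 to −1 are printed because levels of both genes are described side by side below, with the matched repeat in capitals. The repeat runs from −32 to −16 in Cyp26a1, where the match reads on the opposite strand, and from −53 to −37 in Rarb. The whole printed stretch is chr19:37697688-37697807 on the plus strand for Cyp26a1 and chr14:16575477-16575596 on the minus strand for Rarb.
Cyp26a1 promoter: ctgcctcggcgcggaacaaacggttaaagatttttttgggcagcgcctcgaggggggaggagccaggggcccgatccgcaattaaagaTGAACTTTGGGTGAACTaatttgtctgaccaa
Rarb promoter: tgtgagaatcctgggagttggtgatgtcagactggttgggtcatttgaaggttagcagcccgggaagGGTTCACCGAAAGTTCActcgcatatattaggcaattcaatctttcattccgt
The same half-sites with 1 base between them (DR1) matched 73 promoters, 0.222%, and with 2 bases between them (DR2) matched 88, 0.268%, with 0 of the 9 genes among either. A match is a string of letters in a window and says nothing of binding in these livers.

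The injected oligonucleotide is named miR-29a in the labels, which do not give its arm or chemistry. Both mature arms of the mouse gene are printed from RefSeq with the seed, bases 2 to 8, in capitals. The probe of Cyp26a1 is shown too, since its 60 bases are an open reading frame of 20 codons with 0 stops, at mm9 chr19:37775566-37775625 on the plus strand.
mmu-miR-29a-3p: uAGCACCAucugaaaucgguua
mmu-miR-29a-5p: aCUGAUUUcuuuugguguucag
Cyp26a1 probe: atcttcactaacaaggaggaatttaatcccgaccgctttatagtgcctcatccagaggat

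**Figure D1:**
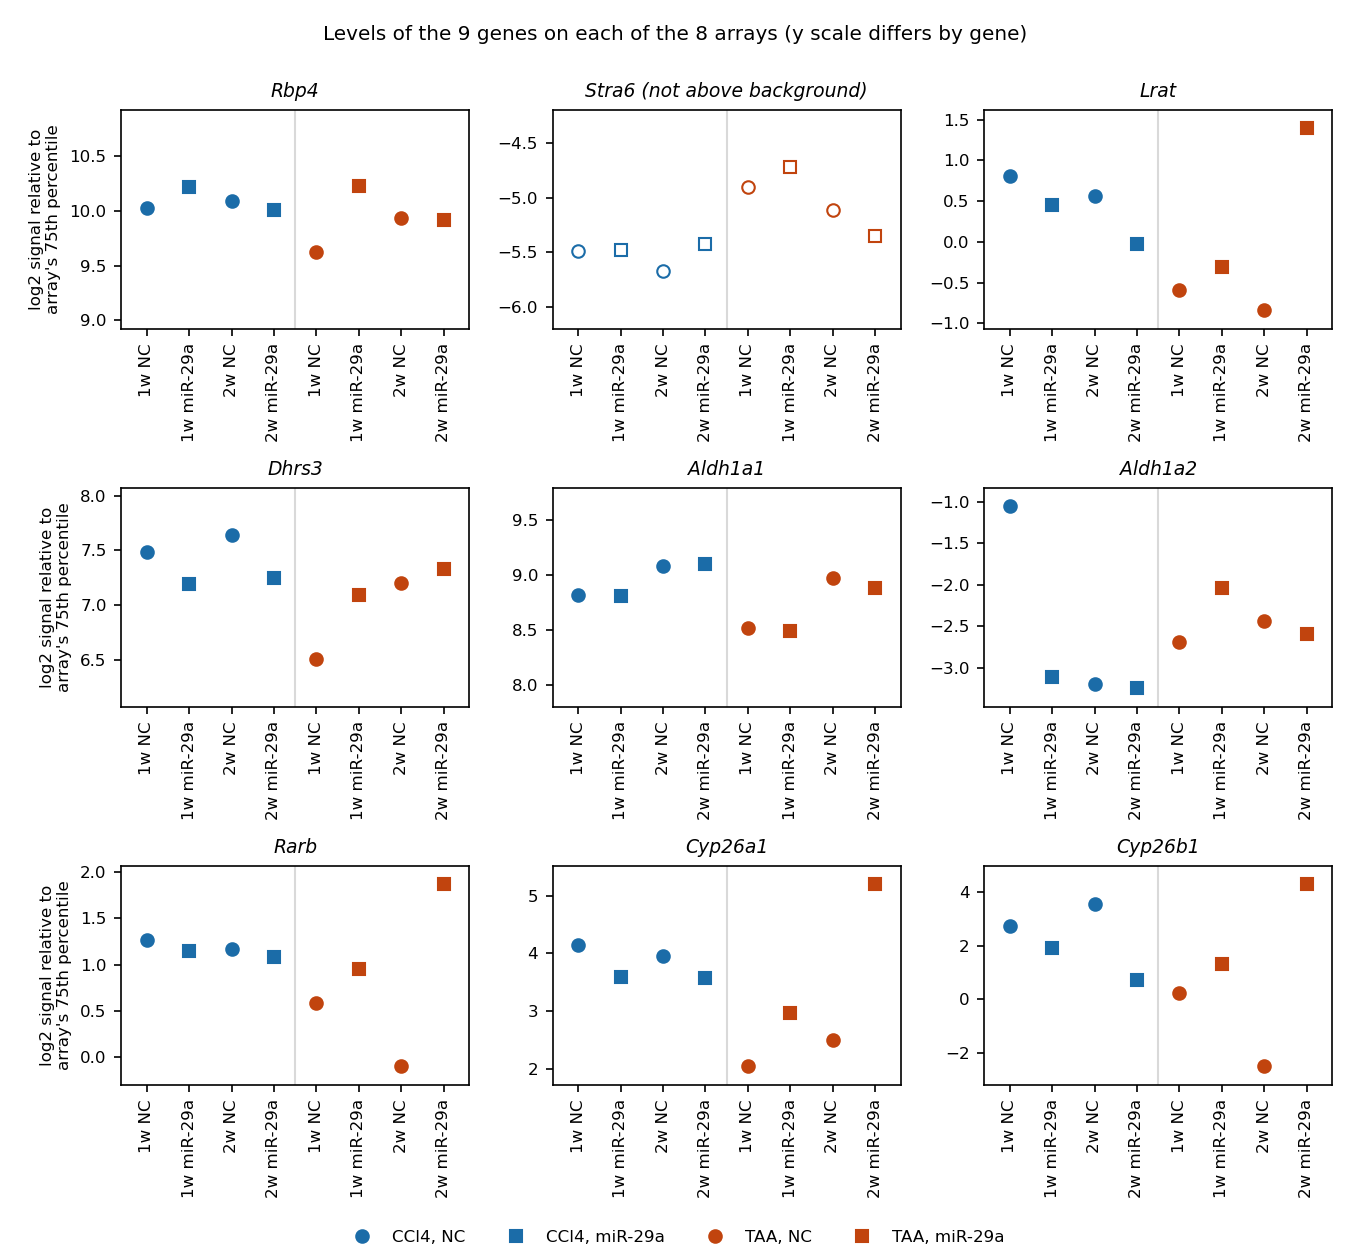
Log2 level relative to the array's 75th percentile (y axis, a different range in each panel) of the 9 genes on the 8 arrays (x axis). Colour gives the agent, circles are NC and squares miR-29a arrays, and each point is 1 array. Open points of Stra6 are not well above background. The TAA 2-week miR-29a array is the highest for Lrat, Rarb, Cyp26a1 and Cyp26b1, and Rbp4 spans only 0.60.

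Transport came first. Rbp4, the retinol-binding protein that hepatocytes secrete into blood (probe at mm9 chr19:38191120-38191179), lay at 10.03, 10.21, 10.09 and 10.004 on the CCl4 arrays in the order given above. It lay at 9.62, 10.22, 9.93 and 9.92 on the TAA arrays. The whole range was 0.60, or 1.52-fold, and the agents overlapped. The lowest value was that of TAA 1-week NC, the array with the high acute-phase, neutrophil and Kupffer genes, and the part of those cells in it was not tested. Stra6, the membrane receptor that takes up retinol from Rbp4 in tissues such as the eye (probe at mm9 chr9:58001701-58001760), was not well above background on any of the 8 arrays and has only a bound there.

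Ttr, the plasma protein that holds Rbp4 in the circulation, ranged from 9.15 on TAA 1-week NC to 9.94 on CCl4 1-week miR-29a. Its lowest array was thus the same as that of Rbp4.

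Storage genes varied more. Lrat, the enzyme that esterifies retinol for the stellate droplets (probe at mm9 chr3:82696805-82696864), lay at 0.81, 0.45, 0.56 and −0.02 after CCl4. After TAA it lay at −0.59, −0.31, −0.84 and 1.40. The first 3 TAA arrays were below all 4 CCl4 arrays and the fourth, TAA 2-week miR-29a, was above all of them, 4.72-fold over the lowest array. In whole liver RNA, fewer cells of a type and less RNA per cell cannot be told apart, here and below.

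Dhrs3, which reduces retinal back to retinol and so lowers the supply of retinoic acid (probe at mm9 chr4:144517485-144517544), lay at 7.48, 7.19, 7.64 and 7.25 after CCl4. It lay at 6.50, 7.10, 7.20 and 7.33 after TAA. The agents overlapped, and the lowest array was again TAA 1-week NC, 0.59 under the next. Without that array Dhrs3 spanned only 7.10 to 7.64.

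Among the enzymes that make retinoic acid, Aldh1a1, the abundant retinal dehydrogenase of hepatocytes (probe at mm9 chr19:20717764-20717823), lay at 8.82, 8.81, 9.08 and 9.11 after CCl4. It lay at 8.52, 8.49, 8.97 and 8.89 after TAA. The differences of miR-29a from NC lay between −0.09 and 0.02, and the 4 arrays at 2 weeks were above the 4 at 1 week. This was the steadiest of the members between the oligonucleotides.

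Aldh1a2, the retinal dehydrogenase known from embryonic mesoderm and from mesothelium (probe at mm9 chr9:71143931-71143990), lay at −1.05, −3.12, −3.20 and −3.25 after CCl4 and at −2.69, −2.04, −2.44 and −2.59 after TAA. The single array CCl4 1-week NC stood 0.99 above the next, and the other 3 CCl4 arrays were the lowest of all. On that array the 5 detected mesothelial markers were also at their highest: Msln was at 3.28 there and between −0.34 and 1.66 elsewhere, and Wt1 was at 0.81 there and between −1.81 and 0.02 elsewhere. The mean over Msln, Upk3b, Wt1, Gpm6a and Krt19, the last also a bile duct marker, was 0.90 on CCl4 1-week NC against −2.29 to −0.46 on the other 7 arrays, and how much capsule a sample held was not tested. The likeness did not extend to every array, since on TAA 2-week miR-29a the mesothelial mean was second highest, at −0.46, while Aldh1a2 was at −2.59. Of the 8 listed mesothelial genes, Upk1b and Lrrn4 were above background on 1 array each. Aldh1a3, the third enzyme of the family, was at −0.38 on TAA 1-week NC and between −4.12 and −2.37 elsewhere.

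**Figure D2:**
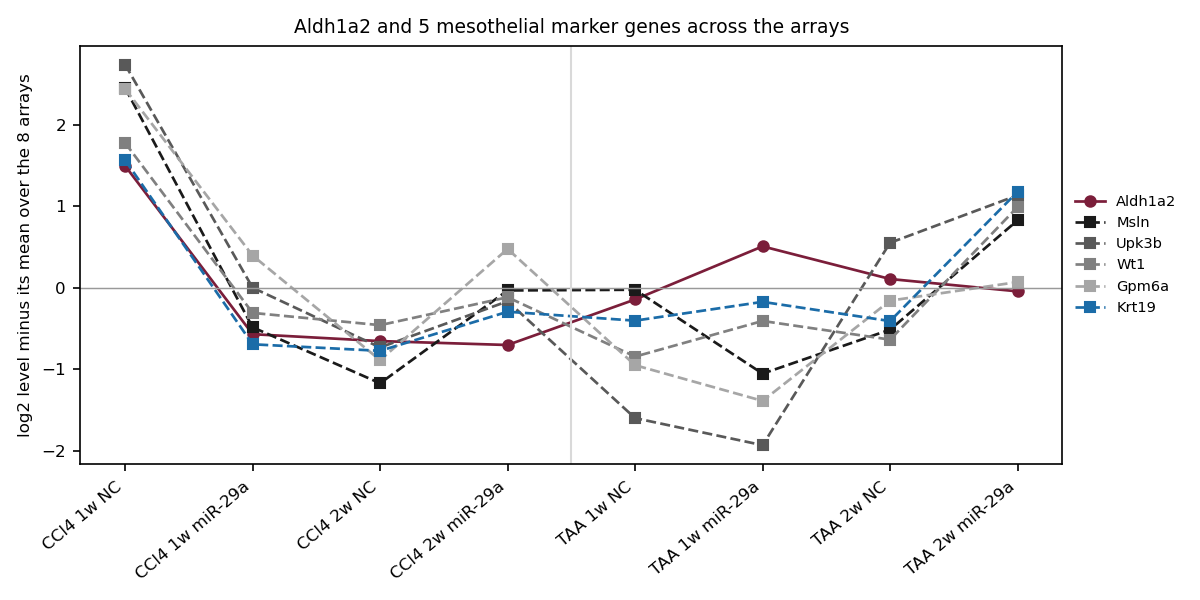
Log2 level minus the gene's mean over the 8 arrays (y axis) for Aldh1a2 (solid line) and 5 mesothelial markers (dashed lines) on each array (x axis). Aldh1a2 and all 5 markers peak on CCl4 1-week NC. Aldh1a2 does not follow the markers upward on TAA 2-week miR-29a, where its level before the mean is taken off is −2.59. Lines only join the points of a gene.

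Rarb, the retinoic acid receptor whose own gene responds to retinoic acid, had 3 probes. The brightest (mm9 chr14:17263367-17263426) lay at 1.27, 1.14, 1.16 and 1.08 after CCl4 and at 0.59, 0.95, −0.10 and 1.88 after TAA. The CCl4 arrays stayed close together, while the TAA arrays covered the whole range from lowest to highest. A second probe (mm9 chr14:17264648-17264707) was dimmer, between −2.92 on TAA 2-week NC and −1.52 on TAA 2-week miR-29a, the same 2 arrays at the ends. The third, designed on another transcript and lying at mm9 chr14:17651424-17651483, was not well above background on any array. For the other receptors, Rara lay between 3.26 and 4.30, Rarg between 0.89 and 1.74, and Rxra between −0.10 and 0.67. The 2 probes of Rxra did not agree on which agent was higher, so no direction is given for it.

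Breakdown genes had the widest ranges. Cyp26a1, the retinoic acid hydroxylase that hepatocytes induce when retinoic acid is high, lay at 4.15, 3.59, 3.96 and 3.56 after CCl4. After TAA it lay at 2.04, 2.96, 2.49 and 5.21. As with Lrat, 3 TAA arrays were below every CCl4 array and TAA 2-week miR-29a was above them all, a range of 8.98-fold.

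Cyp26b1, its relative with expression in stellate and other non-parenchymal cells (probe at mm9 chr6:84521952-84522011), lay at 2.74, 1.92, 3.54 and 0.72 after CCl4. After TAA it lay at 0.25, 1.32, −2.49 and 4.30. The range was 6.80, or 111-fold, between the NC and the miR-29a array of the TAA 2-week livers. Those were the lowest and the highest of all 8, and the CCl4 arrays lay between them. The level on TAA 2-week NC was near the floor, since the dimmest signal well above background on that array was −3.19. Fold values of Cyp26b1 that use that array, here and below, rest on this dim signal. The third family member, Cyp26c1, was not well above background on any array.

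Cyp26a1, Cyp26b1, Lrat and Rarb followed each other across the arrays. The order of the 8 arrays was identical for Lrat and Rarb, with a Spearman rho of 1, and Pearson's r was 0.92. For Lrat and Cyp26a1 r was 0.96 and rho 0.98, and for Lrat and Cyp26b1 they were 0.92 and 0.95. Over the 7 arrays other than TAA 2-week miR-29a, r was 0.87 for Lrat with Rarb, 0.93 with Cyp26a1 and 0.89 with Cyp26b1. Pairs without Lrat were partly looser. Over 8 arrays r was 0.94 for Rarb with Cyp26b1, 0.88 for Rarb with Cyp26a1 and 0.84 for Cyp26a1 with Cyp26b1. Over the 7 arrays these became 0.93, 0.79 and 0.77. These are descriptions over 8 arrays of 1 slide that share their scaling, and the genes were not picked blind to them.

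The other members had lower correlations with these over 8 arrays. Rbp4 had r of 0.25 with Lrat and 0.32 with Cyp26a1, which became 0.50 and 0.63 over the 7 arrays other than TAA 2-week miR-29a. With Lrat, Aldh1a1 had r of 0.29 and Aldh1a2 of 0.10, and over the 7 arrays 0.31 and 0.15. Dhrs3 had r of 0.71 with Cyp26a1, 0.60 with Lrat, 0.49 with Cyp26b1 and 0.41 with Rarb, and over the 7 arrays 0.86, 0.68, 0.49 and 0.42. Over those 7 arrays Cyp26a1 was thus closer to Dhrs3 than to Rarb (0.79) or Cyp26b1 (0.77).

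Among all detected genes with a symbol, the 5 whose profile was most like Cyp26b1 by Pearson's r over the 8 arrays were Rgs12 (0.95), Rarb (0.94), Rec114 (0.94), Lrrc32 (0.94) and Lrat (0.92). For Cyp26a1 they were Lrat (0.96), Olfr549 (0.92), Htra3 (0.90), Klhl25 (0.89) and Pdlim1 (0.89). For Lrat they were Cyp26a1 (0.96), Rarb (0.92), Cyp26b1 (0.92), Zfpm2 (0.91) and Htra3 (0.91). Each gene of the trio Lrat, Rarb and Cyp26b1 therefore stood in the nearest 5 of another. Rec114 and Zfpm2 were well above background on only 4 arrays and Htra3 on 5.

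The stellate marker lists are given by their means, which vary less than single genes do. Over the 15 detected quiescent stellate markers the mean level lay between 0.94 on TAA 1-week NC and 1.41 on TAA 2-week miR-29a, a range within which the TAA 2-week NC array, at 1.35, was second highest. Over the 11 activated stellate and fibroblast markers it lay between 0.14 and 1.34, highest on CCl4 1-week NC. Single markers ranged further. Acta2, the smooth muscle actin of myofibroblasts, went from −1.78 on TAA 2-week NC to 1.22 on CCl4 1-week miR-29a, and Rgs5, a pericyte gene, from −1.27 to 0.95. Both were chosen after their values were seen. Acta2 did not stand for its list: in the CCl4 1-week pair it was higher with miR-29a by 1.29. In that pair 9 of the 11 activated markers were lower with miR-29a, with a median of −0.76. Gfap, a defining stellate marker in rodents, was not well above background with any of its probes on any array.

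**Figure D3:**
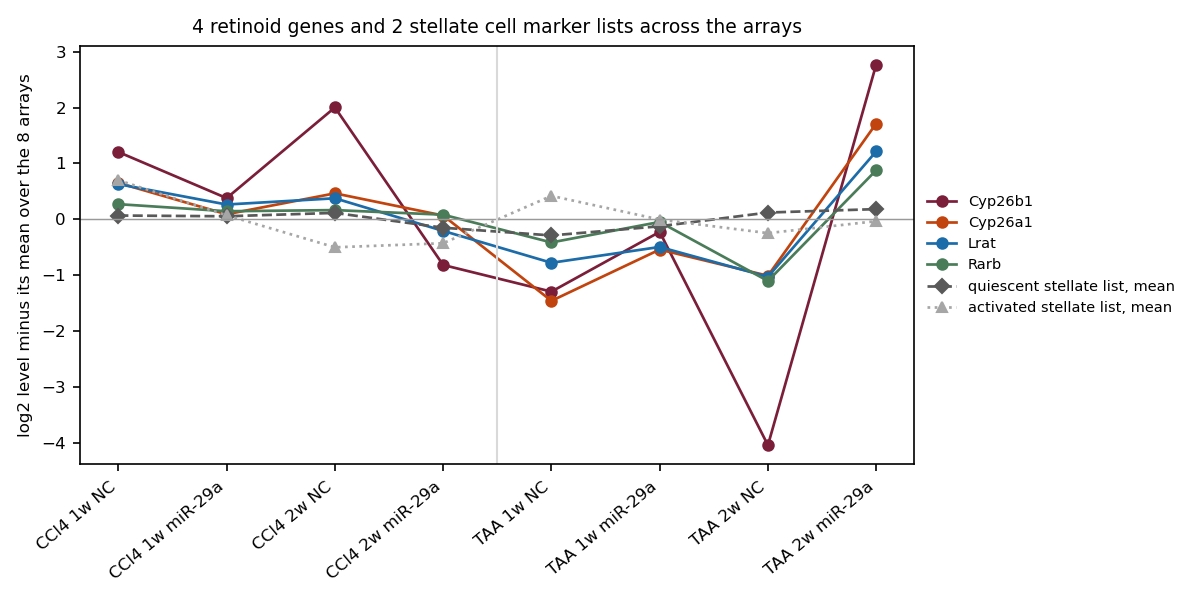
Log2 level minus its mean over the 8 arrays (y axis) for Cyp26b1, Cyp26a1, Lrat and Rarb (solid lines) and for the means of 15 quiescent and 11 activated stellate markers (dashed and dotted lines), by array (x axis). The 4 genes are low on TAA 2-week NC and peak on TAA 2-week miR-29a. Before the mean is taken off, the level of Cyp26b1 is −2.49 and 4.30 on those arrays, and the quiescent list mean is 1.35 and 1.41. Lines only join points of 1 series.

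Whether the agent changed these genes was asked in a limma fit over all 8 arrays with week and oligonucleotide as further terms, which left 4 residual degrees of freedom. For TAA against CCl4, 0 of the 8 detected members passed a Benjamini-Hochberg adjusted p of 0.05, as did 0 of 18534 features (0%), with 5323 features but 0 members under an unadjusted 0.05. Lrat differed by −0.54 ± 0.50 (SE, n = 8 arrays, limma adjusted p = 0.47) and Cyp26a1 by −0.64 ± 0.60 (limma adjusted p = 0.48). Both were lower after TAA in 3 of 4 matched pairs, and the fourth pair, 2-week miR-29a, went the other way.

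The pairs show how uneven this was. In the 2-week NC pair Cyp26b1 was lower after TAA by 6.03, or 65.5-fold, the lowest of all 18534 features, and in the 2-week miR-29a pair it was higher by 3.58, or 12-fold, the fourth highest. Cyp26a1 was lower by 2.11, 0.63 and 1.47 in the pairs 1-week NC, 1-week miR-29a and 2-week NC (differences −2.11, −0.63 and −1.47), and higher by 1.64 in the last. Over 2-fold either way were 4 of 8 members in the 1-week NC pair (23% of all features), 1 in the 1-week miR-29a pair (21.9%), 4 in the 2-week NC pair (3.26%) and 3 in the 2-week miR-29a pair (3.98%). Nothing is read from these counts, since the arrays are those that the genes were selected on.

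Aldh1a1 was the member with the same sign in every pair by agent. It was lower after TAA by 0.24 ± 0.11 (difference −0.24, SE, n = 8 arrays, limma adjusted p = 0.20), in 4 of 4 pairs, with single differences between −0.31 and −0.11. It did not pass the test, and the direction depends on the scaling: after quantile normalization the difference was 0.02, and after scaling to the median −0.63 with an adjusted p of 0.045. Scaling to the median moved the median of all features by up to 0.60 in a single pair, so the size of an agent difference here depends on the scaling.

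**Figure D4:**
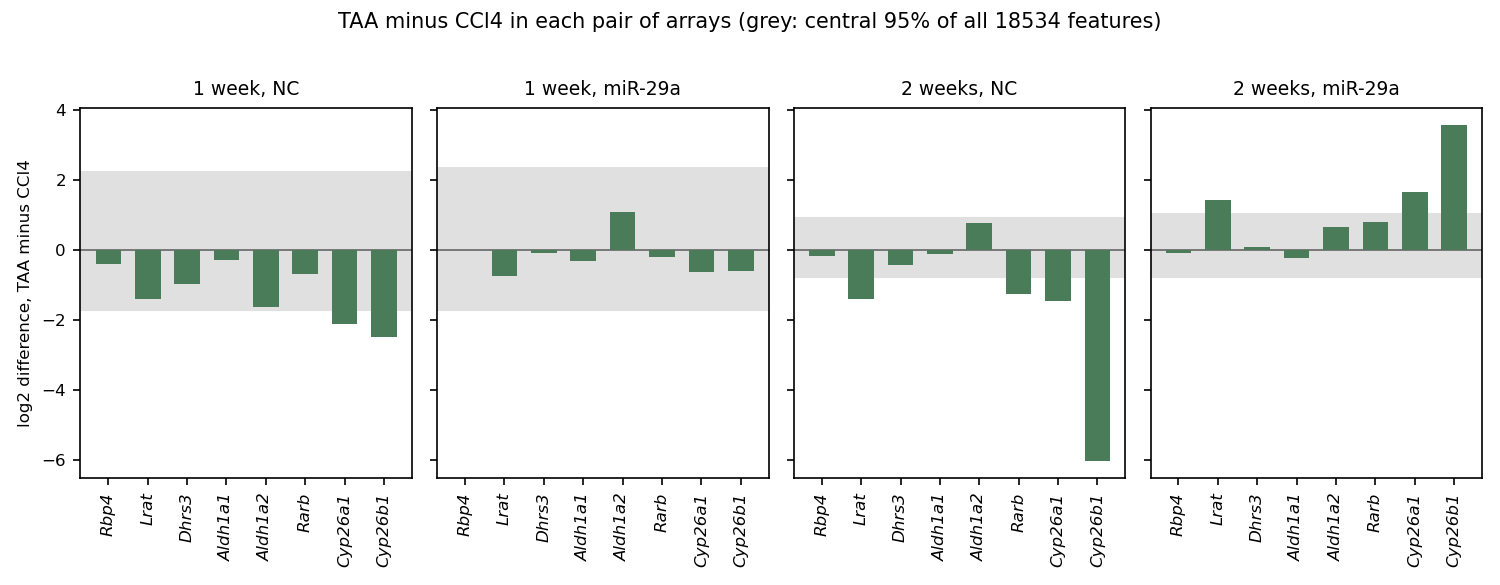
Log2 difference, TAA minus CCl4 (y axis), of the 8 detected members in each of the 4 pairs of arrays matched by week and oligonucleotide (panels). Each bar is 1 array minus 1 array and has no error, and the grey band holds the central 95% of all 18534 features in that pair. Cyp26a1 and Cyp26b1 leave the band downward in the 1-week NC pair (−2.11 and −2.49). Lrat, Rarb, Cyp26a1 and Cyp26b1 leave it downward in the 2-week NC pair (−1.40, −1.27, −1.47 and −6.03). In the 2-week miR-29a pair Lrat, Cyp26a1 and Cyp26b1 leave it upward (1.42, 1.64 and 3.58).

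Within a week the fit had an agent-by-week term and 3 residual degrees of freedom. At 1 week, where 35.7% of all features were called (6620 of 18534, 2343 higher and 4277 lower after TAA), 0 of the 8 members passed. Aldh1a1 had the smallest limma adjusted p, 0.10, at −0.31 ± 0.12 (SE), and it was the only member under an unadjusted 0.05, against 48.3% of all features. Lrat was at −1.08 ± 0.69 (limma adjusted p = 0.26), Dhrs3 at −0.54 ± 0.26 (0.16) and Cyp26a1 at −1.37 ± 0.81 (0.23), all lower after TAA. Leaving out TAA 2-week NC or TAA 2-week miR-29a brought Lrat past the threshold (−1.08, adjusted p = 0.043 each time), and leaving out TAA 1-week miR-29a did so for Dhrs3 (−0.92, adjusted p = 0.034). Other arrays made the differences smaller when left out: Dhrs3 was at −0.15 without TAA 1-week NC and −0.34 without CCl4 1-week NC. Without CCl4 1-week NC Lrat was at −0.58 and Cyp26a1 at −0.55, and without CCl4 1-week miR-29a Cyp26a1 was at −2.19.

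At 2 weeks 0 of 18534 features (0%) and 0 members passed in limma, with 2093 features but 0 members under an unadjusted 0.05. The agent-by-week term called 9.84% of all features and 0 members, again with 0 members under an unadjusted 0.05. Its value for Cyp26a1 was 1.45 ± 1.15 (SE, limma adjusted p = 0.44).

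The step from 1 to 2 weeks was small for most members. In the additive limma fit 0 of 8 members and 0 of all features (0%) passed, with 961 features and 1 member, Aldh1a1, under an unadjusted 0.05. Aldh1a1 was higher at 2 weeks by 0.35 ± 0.11 (SE, n = 8 arrays, limma adjusted p = 0.87), in 4 of 4 pairs, by 0.26, 0.30, 0.45 and 0.39. Pericentral hepatocyte markers also had positive fitted differences between the weeks, 8 of 8 with a median of 0.42 and 0 past the adjusted threshold, and their part in it was not tested. Dhrs3 was also higher at 2 weeks in 4 of 4 pairs, by 0.29 ± 0.20 (limma adjusted p = 0.88).

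Within CCl4, 1.08% of all features were called between the weeks and 0 members, with 0 members under an unadjusted 0.05. Within TAA 0 of either were called (0%), with 4998 features and 1 member, Aldh1a1 at 0.42 ± 0.12 (SE, limma adjusted p = 0.11), under an unadjusted 0.05. The 2-week minus 1-week difference of Cyp26a1 was 0.45 and 2.25 in the TAA pairs of NC and of miR-29a, and −0.19 and −0.02 in those of CCl4. Cyp26b1 went opposite ways with the oligonucleotide, with 0.80 and −1.19 in the CCl4 pairs of NC and miR-29a, and −2.74 and 2.99 in those of TAA.

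Counts over 2-fold between the weeks were 1 of 8 in CCl4 NC (7.42% of all features), 1 in CCl4 miR-29a (7.92%), 1 in TAA NC (13%) and 3 in TAA miR-29a (7.43%). The last 3 were Lrat at 1.71, Cyp26a1 and Cyp26b1. The single member in CCl4 NC was Aldh1a2, at −2.15, whose 1-week array is the one with the high mesothelial markers. In the same pair all 5 mesothelial markers were lower at 2 weeks, with a median of −3.33.

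Whether miR-29a changed these genes relative to NC is the contrast that the paired NC arrays allow. Averaged over agents and weeks, 0 of the tested members and 0 of 18534 features (0%) passed in limma, with 525 features, or 2.83%, under an unadjusted 0.05. Rarb was at 0.53 ± 0.36 (SE, n = 8 arrays), Cyp26a1 at 0.67 ± 0.60, Lrat at 0.39 ± 0.50, Rbp4 at 0.17 ± 0.15, Aldh1a2 at −0.40 ± 0.45, Aldh1a1 at −0.03 ± 0.11 and Dhrs3 at 0.01 ± 0.20, each with a limma adjusted p of 0.9997. The mean of Cyp26b1, given without a test, was 1.06. With the TAA 2-week miR-29a array left out, the mean became −0.20 for Lrat, −0.02 for Cyp26a1 and −0.42 for Cyp26b1, so the sign of these means rests on that array. The mean of Aldh1a2 became 0.14 when CCl4 1-week NC was left out.

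The single pairs differed by agent. In the TAA 2-week pair miR-29a was above NC by 6.80 in Cyp26b1 (111-fold, the highest of 18534 features), by 2.72 in Cyp26a1 (6.59-fold, the ninth highest), by 2.24 in Lrat (4.72-fold, rank 26) and by 1.98 in Rarb (3.94-fold, rank 44). The second Rarb probe differed by 1.40 in that pair, and after another background correction (normexp) Cyp26b1 differed by 5.30. In the TAA 1-week pair the same genes were above NC by 1.07, 0.92, 0.28 and 0.37.

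After CCl4 these 4 genes were below NC or close to it. Cyp26b1 was at −0.82 at 1 week and −2.81 at 2 weeks, the latter the fourth lowest of 18534 features. Cyp26a1 was at −0.56 and −0.40, Lrat at −0.36 and −0.58, and Rarb at −0.13 and −0.08. Dhrs3 shared the signs, at −0.29 and −0.39 after CCl4 and 0.59 and 0.12 after TAA.

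These 5 of 8 members were below NC in both CCl4 pairs and above it in both TAA pairs, a sign pattern that 5.52% of all features had. The pattern was known for Cyp26b1 when the genes were selected, and Lrat, Rarb, Cyp26a1 and Cyp26b1 follow each other across the arrays, so they are not independent cases of it. For Rarb it held for the brightest probe only, the second probe being at 0.14 in the CCl4 2-week pair and −0.21 in the TAA 1-week pair. For Dhrs3 it depended on the scaling, since under median scaling the difference in the TAA 2-week pair was −0.04. In the limma term for the difference between agents, 0 of all features (0%) and 0 tested members passed. Under an unadjusted 0.05 were 258 features, or 1.39%, and among the tested members Cyp26a1 alone. Since the oligonucleotide difference of Cyp26b1 in these arrays helped to choose the genes, this term is not an independent test of them. Cyp26a1 was at 2.30 ± 0.86 (SE, limma adjusted p = 0.9998), Lrat at 1.73 ± 0.79, Rarb at 1.28 ± 0.55 and Dhrs3 at 0.70 ± 0.33, each with the same adjusted p. With TAA 2-week miR-29a left out, these became 1.21 for Cyp26a1, 0.72 for Lrat and 0.67 for Rarb, and Cyp26b1 went to 3.73. Rarb was at 0.81 without TAA 2-week NC, and Dhrs3 at 0.42 without TAA 1-week NC, while leaving out TAA 1-week miR-29a gave 2.75 for Lrat. With all arrays the difference is 5.75 for Cyp26b1, untested. For the difference between weeks 0 of all features (0%) passed, with 356 under an unadjusted 0.05 and 0 members among them.

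**Figure D5:**
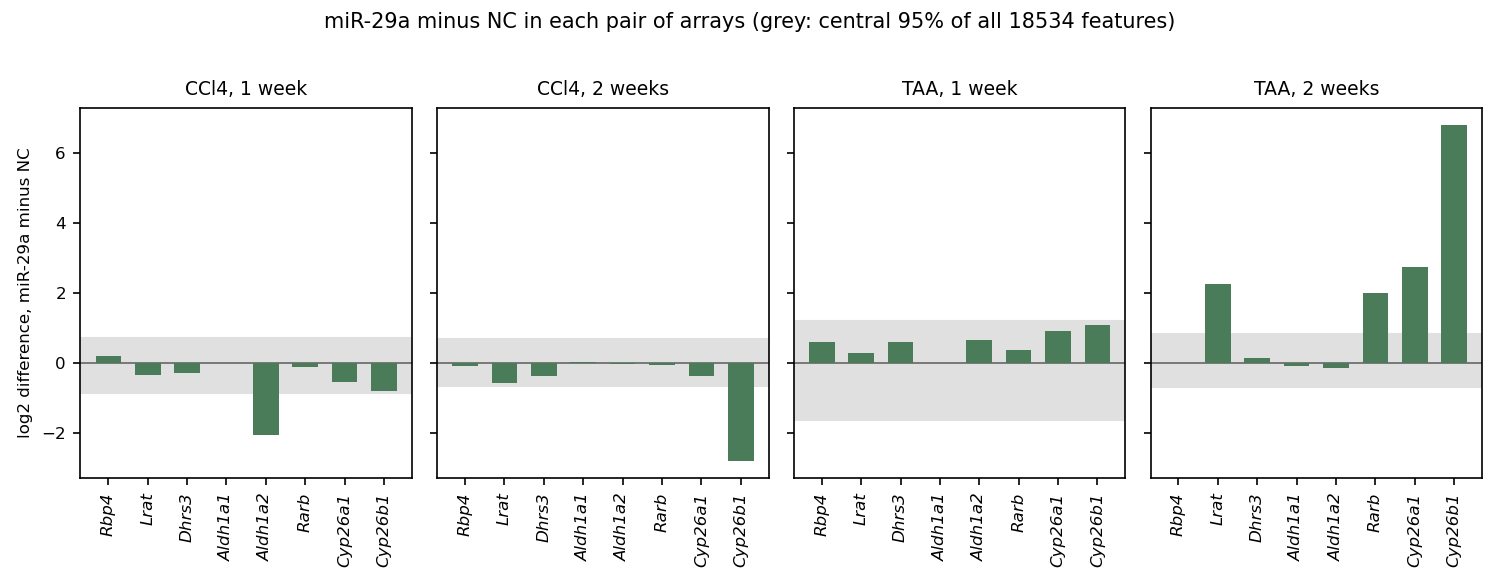
Log2 difference, miR-29a minus NC (y axis), of the 8 detected members in each of the 4 pairs of arrays matched by agent and week (panels). Each bar is 1 array minus 1 array and has no error, and the grey band holds the central 95% of all 18534 features in that pair. Lrat, Rarb, Cyp26a1 and Cyp26b1 leave the band upward in the TAA 2-week pair (2.24, 1.98, 2.72 and 6.80), and Cyp26b1 leaves it downward in the CCl4 2-week pair (−2.81), as does Aldh1a2 in the CCl4 1-week pair (−2.07).

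Over 2-fold were 1 of 8 members in the CCl4 1-week pair (2.83% of all features), 1 in the CCl4 2-week pair (1.86%), 1 in the TAA 1-week pair (9.83%) and 4 in the TAA 2-week pair (2.68%). The member in the CCl4 1-week pair was Aldh1a2 at −2.07, or 4.19-fold, where the mesothelial markers had a median of −2.26 with 5 of 5 lower. After normexp that difference of Aldh1a2 was −0.75. In the other 2 single cases it was Cyp26b1. Nothing is read from the last count, since this contrast helped to choose the genes.

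Cell type markers in the TAA 2-week pair were as follows. Quiescent stellate markers were higher with miR-29a in 8 of 15, with a median of 0.03, and activated stellate and fibroblast markers in 9 of 11, with a median of 0.25 and 0 of them over 2-fold. Mesothelial markers were higher in 5 of 5, with a median of 1.34, and pericentral hepatocyte markers in 0 of 8, with a median of −0.52. All 18534 features had a median of −0.01 in that pair. The part of these cells in the differences of Lrat, Rarb, Cyp26a1 and Cyp26b1 was not tested.

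In the wider retinoid pathway, a list of 79 further genes of transport, ester turnover, oxidation, binding and response was drawn up, of which 67 were detected. At 1 week 16 of the 67 were lower and 1 was higher after TAA at a limma adjusted p of 0.05. Of all 18534 features 4277 were lower and 2343 higher, together 35.7%. The share called lower was thus close to that of all features, and the share called higher was below it. The median difference was −0.31, against −0.16 over all features. Of 21 retinol and retinal oxidoreductases 6 were lower, of 13 genes of ester synthesis and hydrolysis 6 were lower, of 5 corepressors and coactivators 2 were lower, and of 7 reported retinoic acid responsive genes 0 passed in either direction.

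By size, the leading ones were these. Rdh1, a retinol dehydrogenase, went from 1.55 and 1.05 after CCl4 to −0.96 and −1.30 after TAA, a difference of −2.43 ± 0.19 (SE, limma adjusted p = 0.0041). Lipc, the hepatic lipase that also hydrolyses lipoprotein lipids, went from 2.27 and 2.26 to −0.01 and 0.19, a difference of −2.18 ± 0.19 (limma adjusted p = 0.0042). Lrp2, an endocytic receptor for Rbp4 in kidney, was not well above background on either TAA 1-week array. With the main processing it was at least 2.84-fold lower there. That bound sets the 2 CCl4 1-week arrays against the dimmest signal well above background on each TAA array. The fit itself (limma adjusted p = 0.011) used the dim signals as measured and not the bound. After normexp the fitted difference was −0.72, smaller than the bound. Crabp2, which hands retinoic acid to its receptors, was the gene that was higher, by 0.65 ± 0.15 (limma adjusted p = 0.027), but under median scaling its difference was 0.06 (adjusted p = 0.82). Rdh10, the enzyme of the first oxidation step, was lower by 1.23 (difference −1.23 ± 0.13, limma adjusted p = 0.0047), and Crabp1 was not well above background on any array.

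For some of these the agent difference was less negative at 2 weeks or had changed sign. At 2 weeks Lipc lay at 1.55 and 1.15 after CCl4 against 1.61 and 1.29 after TAA. Rdh1 was still lower after TAA, with −0.23 and −0.11 against −0.64 and −0.72. The agent-by-week term called 4 of the 67 genes, all positive, against 9.84% of all features, so the count does not stand out. The largest were Lipc at 2.28 ± 0.27, Dhrs4 at 2.06 ± 0.27 and Rdh1 at 1.92 ± 0.26 (SE, limma adjusted p = 0.027 each). Dhrs4, another retinal-reducing enzyme, lay at 4.38 and 4.43 after CCl4 at 1 week against 2.42 and 2.79 after TAA, and at 3.71 and 3.80 against 4.17 and 3.85 at 2 weeks. Between the weeks of CCl4 only Rdh1 passed, at −1.47 ± 0.19 (limma adjusted p = 0.046). The calls of the interaction term and of this step rest on many arrays: without any 1 of the 4 CCl4 arrays or of the TAA 2-week arrays, 0 of the 67 passed either. The counts at 1 week were 7 without CCl4 1-week NC, 4 without CCl4 1-week miR-29a, where Lrp2 had an adjusted p of 0.066, and 28 without TAA 1-week miR-29a.

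By oligonucleotide 0 of the 67 passed in limma, with 5 under an unadjusted 0.05 and a median of −0.01 against 0.03 over all features. In the TAA 2-week pair, where Cyp26b1, Cyp26a1 and Lrat stood highest, 24 of the 67 were higher and 43 lower with miR-29a, with a median of −0.07, where 52.6% of all features were lower with a median of −0.01. Over 2-fold were 2 of the 67, against 2.68% of all features. Of the 21 oxidoreductases 19 were lower there, against the same 52.6%, with a median of −0.25, in a single pair without a test, and of the 7 reported retinoic acid responsive genes 5 were higher, with a median of 0.13.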

How the data were processed

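The spots' intensity values (processed signal, background already subtracted) came, per the file headers, from Feature Extraction 10.10.1.1. The deposited flags per spot (another unit, 0 or 1) and a deposited matrix of log2 values were also used. At least 99.76% of matrix values lay within 0.01 of the log2 processed signal minus a constant per array. The matrix's column medians were −4.03, −4.06, −3.86, −3.80, −3.45, −3.46, −3.72 and −3.56 in the order of the groups, and how the authors scaled it is not given in the sources used here.

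Control and outlier spots were left out, spots of a probe averaged, and log2 processed signals set against each array's 75th percentile. Probes marked well above background on 4 or more arrays were kept, the brightest per gene, giving 18534 features. The fits used limma 3.58.1 in R 4.3.3 with Benjamini-Hochberg adjustment over all features. Their terms were agent, week and oligonucleotide, or 1 interaction added. They were tried on simulated data in which the spread of a gene was capped. That check therefore does not cover genes that vary as widely as Cyp26b1. Alternatives are in the closing section. Coordinates of probes are the files' (mm9), and sequences are RefSeq's.

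The members and all gene lists were chosen with earlier results of these data known. Named were all members, the 3 largest called differences per direction of the wider list, 10 listed pathway genes (1 is not reported here), and the 5 most alike profiles.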

Additional observations from a re-analysis of the deposited data

Results flagged for a closer look

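In 5 genes the miR-29a minus NC difference went one way in both CCl4 pairs and the other way in both TAA pairs. The second probe of Rarb did not share this pattern. Under median scaling Dhrs3 did not either, with −0.04 in the TAA 2-week pair. The mean difference was −0.47 after CCl4 and 1.26 after TAA for Lrat, a gap of 1.73. For Cyp26a1 it was −0.48 and 1.82, a gap of 2.30, for Rarb −0.10 and 1.17, a gap of 1.28, and for Dhrs3 −0.34 and 0.36, a gap of 0.70. The limma interaction term for these 4 had an adjusted p of 0.9998 each. They are listed here for their opposite signs, so that term is not an independent test of them. For Cyp26b1 the means were −1.82 and 3.93, a gap of 5.75, and the difference was not tested. Without TAA 2-week miR-29a the fitted gaps were 1.21 for Cyp26a1, 0.72 for Lrat, 0.67 for Rarb and 3.73 for Cyp26b1.

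Rbp4 was above NC with miR-29a in both 1-week pairs and below it in both 2-week pairs, with means of 0.40 and −0.05, a gap of −0.45 (limma adjusted p = 0.9999). Cyp26a1 was lower at 2 weeks in both CCl4 pairs and higher in both TAA pairs, with means of −0.10 and 1.35, a gap of 1.45 (limma adjusted p = 0.44). Rbp4 and Cyp26a1 too were picked for these signs, so neither p is an independent test.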

How the results depend on the processing

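With 1 array per group and no uninjured liver, every value rests on few arrays, and slide position cannot be told apart from the agent. No paired analysis by replicate number was possible because every sample carries the number 1. Taking the 4 agent-week combinations as a block gave no calls by oligonucleotide and changed no sign among 8 values. Blocks by slide or scan were not run, since there was 1 of each. The authors' matrix changed no sign among 48 fitted values of the members. Where a value changed below, the cause was not tested.

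Members called by agent were 1 under median scaling and 1 without both TAA 2-week arrays. At 1 week they were 5 under median scaling, 2 under normexp and 0 to 1 with 1 array left out, and between the TAA weeks 1 under normexp. Wider-list calls at 1 week were 45 under median scaling, 28 under normexp, 7 with no filter on dim probes and 4 to 28 with 1 array left out. For the agent-by-week term they were 13, 10, 0 and 0 to 11, and between the CCl4 weeks 0 under quantile normalization, 0 with no filter and 0 to 2 with 1 array left out. All features called ranged from 0 to 5439 by agent, 0 to 505 by week, 0 to 3451 for agent by week, 1765 to 11796 at 1 week, 0 to 11 at 2 weeks, 0 to 505 within CCl4 and 0 to 2543 within TAA. By oligonucleotide they stayed at 0 in all alternatives run.

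Under quantile normalization Aldh1a1 by agent was 0.018, Rbp4 in the TAA 1-week oligonucleotide pair 0.29 and Aldh1a1 there −0.25. Under normexp Aldh1a1 was −0.088 in the CCl4 1-week pair and −0.15 in the TAA 1-week pair, and Aldh1a2 −0.75 in the CCl4 1-week pair. Under median scaling Aldh1a1 was −0.042 in the CCl4 2-week and −0.25 in the TAA 2-week pair.

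Without both CCl4 or both TAA 1-week arrays, Lrat by agent was 0.0088 and Cyp26a1 0.085. Without both CCl4 1-week arrays Aldh1a2 by oligonucleotide was 0.15. Without both CCl4 or both TAA 2-week arrays Aldh1a2 by agent was −0.28. Without both TAA arrays of either week, Lrat by week was −0.36 and Cyp26a1 −0.10. Without both TAA 2-week arrays Lrat by oligonucleotide was −0.22, Cyp26a1 −0.014 and Cyp26b1 −0.86.

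With 1 array left out, the ranges by oligonucleotide were −0.20 to 0.77 for Lrat, −0.79 to 0.14 for Aldh1a2, −0.025 to 1.16 for Cyp26a1 and −0.42 to 2.07 for Cyp26b1. By week they were −0.41 to 0.56 for Lrat, −0.37 to 0.35 for Rarb and −0.072 to 1.11 for Cyp26a1. Within TAA by week they were −0.29 to 0.29 for Rbp4, −0.85 to 0.55 for Aldh1a2, −0.50 to 1.96 for Lrat, −0.84 to 1.08 for Rarb, −0.017 to 2.72 for Cyp26a1 and −3.70 to 3.95 for Cyp26b1. By agent at 1 week they were −0.48 to 0.090 for Rbp4 and −1.39 to 0.83 for Aldh1a2. In all, 36 of 384 such values changed sign.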
